A study of Mus musculus with 24 samples.

Results

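Semaphorins, plexins and neuropilins were followed across sorted cells of mouse brain tumours induced with PDGFB, a ligand that drives the division of oligodendrocyte precursor cells (OPC). Members were the genes whose symbol is that of a semaphorin of classes 3 to 7, a plexin of families A to D or a neuropilin. The rule found 31 members among the 55938 genes of the table, of which 20 were semaphorins, 9 plexins and 2 neuropilins. PDGFB had been transferred in utero into telencephalic ventricles of embryos, and each tumour was sorted into fluorescent glioma cells and non-fluorescent surrounding cells. Both populations of all 12 tumours therefore come from brains that received PDGFB, and no untransduced brain was analysed here. Asymptomatic tumours were 3228A, 3228B, 3228D and 3229B, collected on days 33 to 34. Early symptomatic tumours were 3108C, 3108D, 3109D and 3145A, collected on days 35 to 50. Late symptomatic tumours were 3054A, 3054B, 3054C and 3057E, collected on days 100 to 175. Each stage gave 4 libraries of glioma cells and 4 of surrounding cells, 24 in all. The codes of a stage share prefixes with no other stage, so the stage cannot be told apart from the day or the prefix. Glioma cells were defined by a fluorescent protein, which was red in 3057E and green in the other tumours, and the labels name no cell types among the surrounding cells.

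Semaphorins are secreted, membrane-bound or lipid-anchored guidance proteins that steer axons, migrating precursors, vessels and immune cells. Plexins are their main signalling receptors, and act through a cytoplasmic domain that switches off small GTPases of the Ras family. Most secreted class 3 semaphorins bind a neuropilin, which lends the plexin its affinity for the ligand, whereas Sema3e can bind Plxnd1 directly. In the oligodendrocyte lineage, class 3 semaphorins attract or repel migrating precursor cells, and neuropilins also serve as co-receptors for vascular endothelial growth factors.

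Totals ranged from 9.08e+06 to 1.55e+07 expected counts per library. Tumour 3057E stood apart. Its glioma cells held 1867 CPM (reads scaled to a common library size by TMM over all 24 libraries) summed over 10 microglia markers, and the other 11 glioma libraries held 115 to 637 CPM. Its surrounding cells held 1774 CPM of the same markers, the lowest of the 12 surrounding libraries, and 10985 CPM of 12 OPC markers, of which late surrounding cells of 3054A, 3054B and 3054C held 697 to 3815 CPM. The main folds of the late stage are therefore given with all tumours and without this one. In tumours 3108D and 3109D the populations differed in Xist, the RNA of the inactive X chromosome. Glioma cells of 3108D had 1588 CPM and its surrounding cells 2.08 CPM, and glioma cells of 3109D had 1.89 CPM and its surrounding cells 1077 CPM. Ddx3y went the opposite way, at 0.198 CPM in glioma and 61.9 CPM in surrounding cells of 3108D. In 3109D it was at 65.2 CPM in glioma and 0 CPM in surrounding cells. By these sex-linked genes, the libraries of each of these codes do not look like cells of a single animal. Pairs are counted below by the codes as labelled, these 2 tumours included, unless said otherwise. With the codes exchanged, the number of pairs higher in glioma cells changed only for Sema3e, Sema3f and Plxnb1. Fits without both tumours were made, and results that moved are given beside them. The OPC markers summed to 11382 to 18948 CPM in glioma cells and 697 to 13603 CPM in surrounding cells, and these ranges overlap. By edgeR at an adjusted p under 0.05, 9 of 12 OPC markers were higher in glioma cells over the mean of the stages. In late tumours 9 of 12 were higher, and in asymptomatic and early tumours 0. In bulk libraries, fewer cells of a type and less RNA per cell cannot be told apart.

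Sequences around an annotated start of 4 members are shown first, because these members had the highest ligand level (Sema3d) or were high in late gliomas 3054A, 3054B and 3054C (Sema3e, Sema3a and Plxnb3). They are the RefSeq windows of 300 bases on GRCm38.p6, from 250 bases before to 50 after an annotated start, read along the gene's strand. Sema3e lies at chr5:14025026-14025325, Sema3a at chr5:13396534-13396833, Sema3d at chr5:12382916-12383215 and Plxnb3 at chrX:73756853-73757152, all on the plus strand. The Sema3a window surrounds a start inside the gene, which spans 13125414 to 13602565 in GENCODE, and is not the sequence upstream of its first exon. The Sema3d window ends before the GENCODE start of its gene at 12383385, so the annotations differ in that start. Capitals mark matches, on either strand, to GGGCGG (the GC box), TATAAA (the TATA box), ACGTG (the core of the hypoxia response element) and ACAAAG (a word bound by Sox proteins).
Sema3e: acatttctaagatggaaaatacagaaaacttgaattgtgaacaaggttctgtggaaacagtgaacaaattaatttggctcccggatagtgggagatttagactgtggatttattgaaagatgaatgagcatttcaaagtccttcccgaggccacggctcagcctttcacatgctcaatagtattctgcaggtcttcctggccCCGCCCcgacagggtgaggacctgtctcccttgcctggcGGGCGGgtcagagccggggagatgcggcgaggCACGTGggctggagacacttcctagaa
Sema3a: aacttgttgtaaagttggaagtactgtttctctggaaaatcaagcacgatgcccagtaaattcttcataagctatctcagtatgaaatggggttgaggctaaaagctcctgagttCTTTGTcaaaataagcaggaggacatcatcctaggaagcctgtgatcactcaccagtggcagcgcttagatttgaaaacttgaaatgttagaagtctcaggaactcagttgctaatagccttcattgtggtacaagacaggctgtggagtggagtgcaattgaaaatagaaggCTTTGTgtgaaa
Plxnb3: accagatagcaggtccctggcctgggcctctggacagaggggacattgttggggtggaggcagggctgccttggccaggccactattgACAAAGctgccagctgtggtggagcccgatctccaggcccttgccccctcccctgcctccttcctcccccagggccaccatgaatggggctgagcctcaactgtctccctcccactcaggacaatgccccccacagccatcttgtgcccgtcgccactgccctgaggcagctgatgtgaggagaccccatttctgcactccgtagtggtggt
Sema3d: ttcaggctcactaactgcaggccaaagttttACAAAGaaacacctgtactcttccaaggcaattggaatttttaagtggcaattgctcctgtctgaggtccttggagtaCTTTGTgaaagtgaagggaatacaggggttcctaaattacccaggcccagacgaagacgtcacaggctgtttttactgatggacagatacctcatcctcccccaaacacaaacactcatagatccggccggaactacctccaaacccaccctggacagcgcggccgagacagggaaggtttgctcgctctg
The Sema3e window held 2 GC boxes and a palindrome that reads as ACGTG on each strand. Sema3a and Sema3d windows each held 2 Sox words and the Plxnb3 window 1, and no other match. The 4 windows differed in base composition, with 50.7% G and C in Sema3e, 41.3% in Sema3a, 63.7% in Plxnb3 and 49.7% in Sema3d, and with 11, 2, 4 and 8 CpG in that order. Windows of 26 of the 31 members were matched, 37 in all. Member windows had medians of 63.7% G and C and 15 CpG, against 52.7% and 7 over all windows. The part of this base composition in the following counts was not tested. GGGCGG occurred in 27 of the 37, from 21 of the 26 genes, against 35.7% of all 32851 windows. ACGTG occurred in 8 of the 37, against 19.6% of all windows, and ACAAAG in 8, against 18.7%. TATAAA occurred in 0 of the 37, against 13.6% of all windows. A match describes letters only.

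Sema3d, a secreted class 3 semaphorin, was the most abundant ligand in glioma cells. Per length of the union of exons it reached 88.2 ± 24.8 CPM per kilobase in glioma cells and 43.4 ± 25.8 in surrounding cells (SD, n = 12 each). It made up 46.9% of the summed semaphorin level per kilobase in glioma cells and 30.4% in surrounding cells. In glioma cells its lowest library, 46.4 CPM per kilobase, was above the highest library of the next gene, Sema6a, a transmembrane ligand of the A plexins, at 39.1 CPM per kilobase. Sema6a averaged 27.9 ± 5.78 CPM per kilobase in glioma cells, followed by Sema7a, a lipid-anchored ligand, at 16.7 ± 7.54, Plxnb2 at 16.2 ± 2.31 and Sema6d at 13.6 ± 3.70. The ranges of Sema7a, Plxnb2 and Sema6d overlapped, so their order is within the spread. In surrounding cells Plxnb2, a receptor of class 4 semaphorins, came first at 48.9 ± 16.7 CPM per kilobase, with a range that overlapped that of Sema3d. Sema4d followed there at 24.7 ± 7.49, ahead of Sema6a at 15.6 ± 7.35 and Sema7a at 13.5 ± 3.29.

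At the low end, the secreted Sema3g, Sema3c, Sema3f and Sema3b had mean levels of 0.0446, 0.196, 0.255 and 0.410 CPM per kilobase in glioma cells, the lowest of the 31 members. In surrounding cells Sema3g, Sema3f, Sema3b and Sema3a were the lowest, at 0.179, 0.343, 0.349 and 0.543 CPM per kilobase. Summed over members, semaphorins reached a median of 189 CPM per kilobase in glioma cells and 138 in surrounding cells. Plexins reached 68.5 in glioma cells and 91.7 in surrounding cells. Neuropilins reached a median of 2.20 CPM per kilobase in glioma cells, with a range of 0.760 to 5.48, and 12.7 in surrounding cells, with a range of 5.98 to 31.1. These ranges do not overlap.

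**Figure D1:**
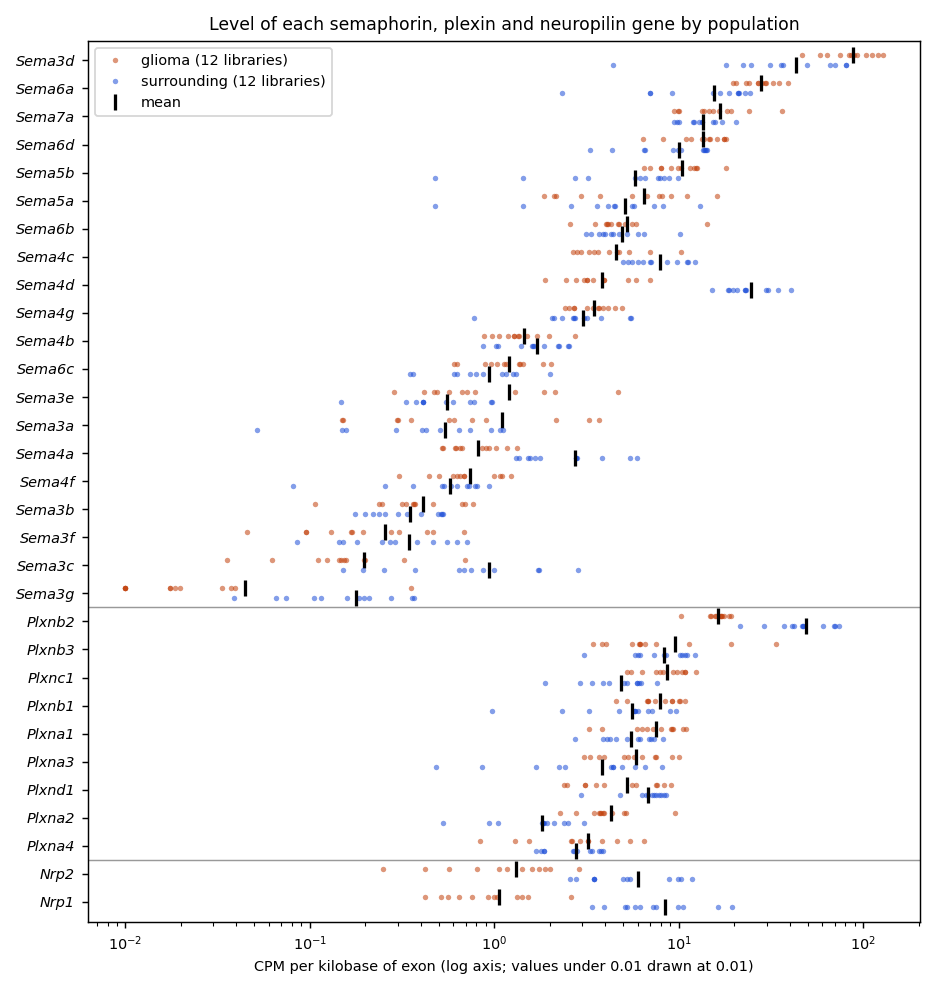
Level of each member in CPM per kilobase of exon, on a log axis, with 12 glioma libraries drawn above 12 surrounding libraries and a bar for the mean of each. Sema3d leads in glioma cells at 88.2 CPM per kilobase, and Nrp1, Nrp2, Sema4d and Plxnb2 lie to the right in surrounding cells.

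Glioma and surrounding cells were compared over the mean of the 3 stages by edgeR's quasi-likelihood test, with p adjusted over the 18810 genes tested and called under 0.05. Members are spread over both directions. Of the 31 members, 6 were higher and 8 lower in glioma cells, where 22.0% of all genes tested were called higher and 24.2% lower. The share of members called was near that background. The median log2 fold change of the members was 0.24, and that of all genes tested 0.06.

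Among the ligands, Sema3d, Sema5b, Sema6a and Sema3e were higher in glioma cells. Sema3d, which repels or attracts migrating neural cells according to context, had 399 to 1094 CPM with a median of 752 in glioma cells, against 37.6 to 695 CPM with a median of 312 in surrounding cells. The ranges overlap, and the glioma library was the higher of the pair in 12 of 12 tumours. Its log2 fold change was 1.09 ± 0.28 (SE), with an edgeR adjusted p of 0.0027. Sema5b, a transmembrane guidance ligand that repels retinal axons, had 45.7 to 128 CPM with a median of 71.4 in glioma cells and 3.36 to 69.8 CPM with a median of 45.2 in surrounding cells. Glioma cells were higher in 12 of 12 pairs, by 0.93 ± 0.28 on the log2 scale, with an edgeR adjusted p of 0.0096. Sema6a had 172 to 343 CPM with a median of 243 in glioma cells and 20.3 to 213 CPM with a median of 155 in surrounding cells. It was also higher in 12 of 12 pairs, with a log2 fold change of 0.90 ± 0.23 and an edgeR adjusted p of 0.0024. In tumour 3054C, whose surrounding cells had the lowest OPC marker sum at 697 CPM, these 3 ligands had their lowest surrounding levels. The part of OPC-like cells among the surrounding cells in these differences was not tested. Sema3e, the ligand of Plxnd1, was higher in 8 of 12 pairs as labelled, and in 7 with codes 3108D and 3109D exchanged. Its log2 fold change was 0.72 ± 0.27 with an edgeR adjusted p of 0.035. That call was lost when any of tumours 3054B, 3108D, 3145A, 3228A, 3228B or 3229B was left out, with adjusted p up to 0.14, and without 3108D and 3109D together, with 0.085. It was also lost with DESeq2 size factors in edgeR (adjusted p 0.054) and with no filter on low counts (0.052).

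The ligands lower in glioma cells were Sema4d, Sema4a, Sema4c, Sema3c and Sema3g. Sema4d, the CD100 antigen of immune cells and a ligand of B plexins, had 14.4 to 53.6 CPM with a median of 25.4 in glioma cells, against 116 to 311 CPM with a median of 175 in surrounding cells. The populations did not overlap in any library, and the log2 fold change was -2.70 ± 0.16 with an edgeR adjusted p of 1.7e-10. Sema4a, a ligand expressed on dendritic cells and T cells, had 2.81 to 7.19 CPM in glioma cells and 7.11 to 32.2 CPM in surrounding cells. Its log2 fold change was -1.63 ± 0.20 with an edgeR adjusted p of 1.1e-06, and it was lower in 12 of 12 pairs. Sema4c, a ligand of Plxnb2, was lower by a smaller margin, with a log2 fold change of -0.81 ± 0.22 and an edgeR adjusted p of 0.0038, in 11 of 12 pairs.

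Sema3c, which guides neural crest and vascular cells, was low in both populations, at 0.253 to 4.96 CPM with a median of 1.08 in glioma cells and 1.08 to 20.4 CPM with a median of 5.13 in surrounding cells. It was lower in glioma cells in 12 of 12 pairs, by a log2 fold change of -2.21 ± 0.38 with an edgeR adjusted p of 5.3e-05. Sema3g, a class 3 semaphorin known from vessels, had 0 to 1.60 CPM in glioma cells, with no read in 4 of 12 libraries, and 0.176 to 1.67 CPM in surrounding cells. Its largest count in any library was 22 reads. The fitted log2 fold change of -2.35 ± 0.62, with an edgeR adjusted p of 0.0039, rests on these few reads. The remaining 11 semaphorins were not called in the mean of the stages, with log2 fold changes from -0.46 (Sema3f) to 0.62 (Sema3a). Among them Sema6d, a transmembrane ligand of Plxna1, was abundant, at 67.9 to 191 CPM with a median of 149 in glioma cells and 34.9 to 151 CPM with a median of 107 in surrounding cells. It was higher in glioma cells in 11 of 12 pairs, and its log2 fold change of 0.45 ± 0.19 had an edgeR adjusted p of 0.061. Sema5a spread widely in both populations, from 34.9 to 302 CPM in glioma cells and from 8.87 to 243 CPM in surrounding cells. Sema7a had 31.3 to 120.4 CPM in glioma cells and 31.1 to 67.7 CPM in surrounding cells. Sema4g had 20.8 to 42.7 CPM in glioma cells and 6.71 to 47.7 CPM in surrounding cells, and Sema6b 10.2 to 56.7 CPM in glioma cells and 12.5 to 40.5 CPM in surrounding cells. Sema4b, Sema4f, Sema6c, Sema3b and Sema3f stayed under 16 CPM in every library.

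Among the receptors, Nrp1, on chromosome 8 at 128358604 to 128503363 of GRCm38, had the largest fold of the 31 members. This co-receptor of Sema3a and of vascular endothelial growth factor had 4.14 to 25.5 CPM with a median of 9.38 in glioma cells, against 33.2 to 189 CPM with a median of 65.7 in surrounding cells. No glioma library reached the lowest surrounding library. The log2 fold change was -2.97 ± 0.28 with an edgeR adjusted p of 2.6e-08. Nrp2, which binds Sema3f and Sema3c, had 2.95 to 34.0 CPM in glioma cells and 30.5 to 140 CPM in surrounding cells. Its log2 fold change was -2.18 ± 0.33 with an edgeR adjusted p of 1.3e-05, in 11 of 12 pairs, the exception being 3057E with 34.0 CPM in glioma cells and 32.9 CPM in surrounding cells. Plxnb2 had 79.0 to 148 CPM in glioma cells and 167 to 571 CPM in surrounding cells, again without overlap. Its log2 fold change was -1.58 ± 0.16 with an edgeR adjusted p of 8.8e-08.

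Plxna2, a receptor of Sema6a and, with neuropilins, of class 3 semaphorins, went the other way. It had 39.2 to 164 CPM with a median of 66.1 in glioma cells, against 9.04 to 52.9 CPM with a median of 31.7 in surrounding cells. Glioma cells were higher in 12 of 12 pairs, with a log2 fold change of 1.26 ± 0.23 and an edgeR adjusted p of 0.00013. Plxnc1, the receptor of Sema7a, was higher by 0.81 ± 0.19 with an edgeR adjusted p of 0.0011, also in 12 of 12 pairs, at 43.6 to 103 CPM in glioma cells and 15.7 to 63.6 CPM in surrounding cells. Of the other 6 plexins, Plxna1, Plxna3, Plxna4, Plxnb1, Plxnb3 and Plxnd1, none was called by edgeR, with log2 fold changes from -0.42 (Plxnd1) to 0.65 (Plxna3) and an unadjusted p under 0.05 in Plxna1, Plxnb1 and Plxnd1. With the tumour code as a block, Plxna1, Plxna3, Plxnb1 and Sema6d were called higher and Plxnd1 lower, which made 19 members called. The share of all genes called with the block is not given here.

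Many markers of other cells moved with the neuropilins, Sema4d, Sema4a and Plxnb2. All 10 microglia markers were called lower in glioma cells, where they summed to 115 to 1867 CPM, against 1774 to 13980 CPM in surrounding cells, with no marker at 0 in any library. Of 10 endothelial markers 8 were lower, with sums of 21.1 to 145 CPM in glioma cells and 108 to 324 CPM in surrounding cells, and up to 4 of them at 0 in a glioma library. Of 8 monocyte and macrophage markers 7 were lower and 1 higher, with sums of 26.1 to 493 CPM in glioma cells and 241 to 4800 CPM in surrounding cells, and up to 3 at 0 in a glioma library. All 10 mature oligodendrocyte markers were lower too, with sums of 353 to 3275 CPM in glioma cells and 3190 to 30759 CPM in surrounding cells, and up to 2 at 0 in a glioma library. All 7 T and NK cell markers tested were lower, with sums of 0.447 to 2.64 CPM in glioma cells and 2.64 to 38.1 CPM in surrounding cells, and up to 7 of 8 at 0 in a glioma library. Lower as well were 7 of 8 fibroblast and meningeal, 7 of 9 pericyte and smooth muscle, 6 of 6 ependymal and choroid plexus and 5 of 10 astrocyte markers. Sums of some lists went the other way. Fibroblast and meningeal sums had medians of 3986 CPM in glioma and 2880 CPM in surrounding cells. In the same order, pericyte and smooth muscle sums had medians of 751 and 515 CPM. Those of astrocyte markers were 2046 and 1835 CPM, and of neuron markers 199 and 129 CPM. The ranges of these sums overlapped between the populations. Pdgfra of the fibroblast list and Cspg4 of the pericyte list are also OPC markers. The part of these cells in the members' differences was not tested. In 3057E the microglia sums were 1867 CPM in glioma cells and 1774 CPM in surrounding cells, while the mature oligodendrocyte sums were 469.6 and 4448 CPM, the monocyte and macrophage sums 493 and 1196 CPM and the endothelial sums 28.8 and 108 CPM, glioma cells given before surrounding cells. Sema4d there had 53.6 CPM in glioma cells and 150.5 CPM in surrounding cells, Nrp1 25.5 CPM in glioma cells and 38.3 CPM in surrounding cells, and Nrp2 34.0 CPM in glioma cells and 32.9 CPM in surrounding cells.

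**Figure D2:**
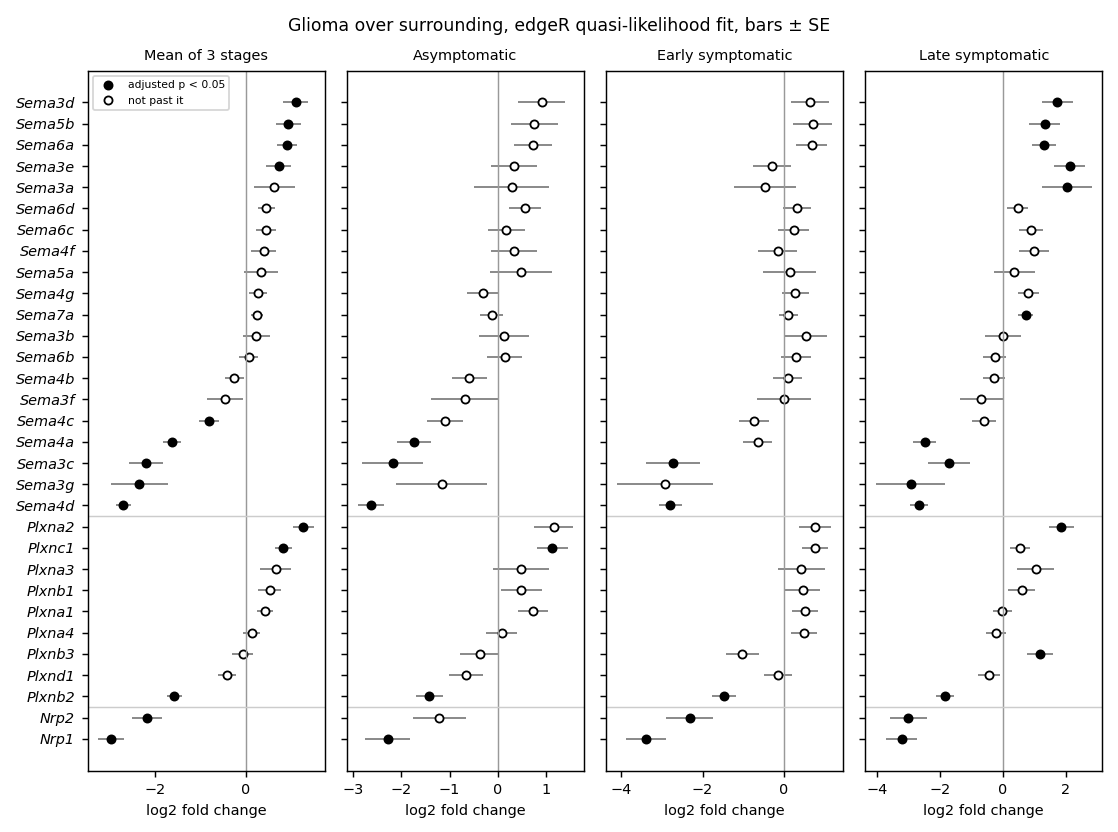
Log2 fold change of glioma over surrounding cells for the 31 members, with bars of 1 SE, over the mean of 3 stages and in each stage. Filled points passed an adjusted p of 0.05; Nrp1, Sema4d and Plxnb2 are filled on the negative side in all 4 panels, and the positive side is filled mainly in the mean and late panels.

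The same contrast was made within each stage. In asymptomatic tumours 1 member was higher and 5 were lower in glioma cells, where 1.30% of all genes were called higher and 12.5% lower. Plxnc1 was the member called higher, by 1.12 ± 0.32 on the log2 scale with an edgeR adjusted p of 0.021, a call lost without 3228A, 3228D or 3229B (adjusted p up to 0.19) and without 3108D and 3109D together (0.051). The lower members were Sema4d, Nrp1, Sema3c, Sema4a and Plxnb2. In early symptomatic tumours 0 members were called higher and 5 lower by edgeR, with backgrounds of 1.06% and 12.4%. The 5 were Nrp1, Sema4d, Sema3c, Nrp2 and Plxnb2. In either direction 8 of 31 members had an unadjusted p under 0.05, against 4584 of all 18810 genes tested. With the tumour code as a block, 8 members were called at this stage, Plxna1 and Plxnc1 among them as higher. By DESeq2 5 members were called, and by limma voom with sample weights 8, of which 2 were higher. The share of all genes called by the block, DESeq2 and voom fits is not given here. Nrp2 lost its early call without 3108C (adjusted p 0.088) and without 3108D and 3109D together (0.073), and Sema3c lost its early call without 3145A and its asymptomatic call without 3228A or 3228D.

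In late symptomatic tumours 8 members were higher and 7 lower in glioma cells, where 15.4% of all genes were called higher and 19.9% lower. Sema3e was higher by 2.12 ± 0.48 on the log2 scale (edgeR adjusted p 0.0018), Plxna2 by 1.86 ± 0.41 (0.00145), Sema3d by 1.73 ± 0.49 (0.0088) and Sema6a by 1.30 ± 0.39 (0.014). Sema3a, Sema5b, Plxnb3 and Sema7a were also called, with log2 fold changes of 2.03, 1.33, 1.18 and 0.72. The lower members were Nrp1, Nrp2, Sema3g, Sema4d, Sema4a, Plxnb2 and Sema3c, from -3.23 in Nrp1 to -1.72 in Sema3c. Nrp2 was at -3.01 ± 0.59 with an edgeR adjusted p of 0.00054. Many of these calls were lost when 1 tumour was left out. Without 3057E the folds were larger for Nrp2 at -4.70 ± 0.43 (edgeR adjusted p 3.0e-08), Nrp1 at -4.17 ± 0.43 (1.7e-07), Sema3d at 2.53 ± 0.46 (0.00014), Sema6a at 1.99 ± 0.32 (4.2e-05) and Sema3e at 2.63 ± 0.52 (0.00036). Plxna2 was then at 2.16 ± 0.45, Sema5b at 2.13 ± 0.42, Sema4d at -3.15 ± 0.27 and Plxnb3 at 1.70 ± 0.39. The count of 15 became 7 without 3054B, 9 without 3054C and 18 without 3057E. The share of all genes called in these fits, and in the other late fits below, is not given here. Gains and losses of calls can therefore not be read as particular to the members. Sema3a was called in 3 and Sema5b in 3 of the 12 fits that left out a tumour. Sema3g kept its call in 6 and Sema3c in 5 of them. Sema6a lost it without 3054A or 3054B, Sema3d without 3054B, and Plxnb3 and Sema7a without 3054B or 3054C. Without 3108D and 3109D together 10 were called, since Plxnb3, Sema3a, Sema3g, Sema5b and Sema7a were not, with adjusted p of 0.056 to 0.088. With the tumour code as a block 22 members were called, but Plxnb3 was not, at 1.10 ± 0.48 and an edgeR adjusted p of 0.082.

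**Figure D3:**
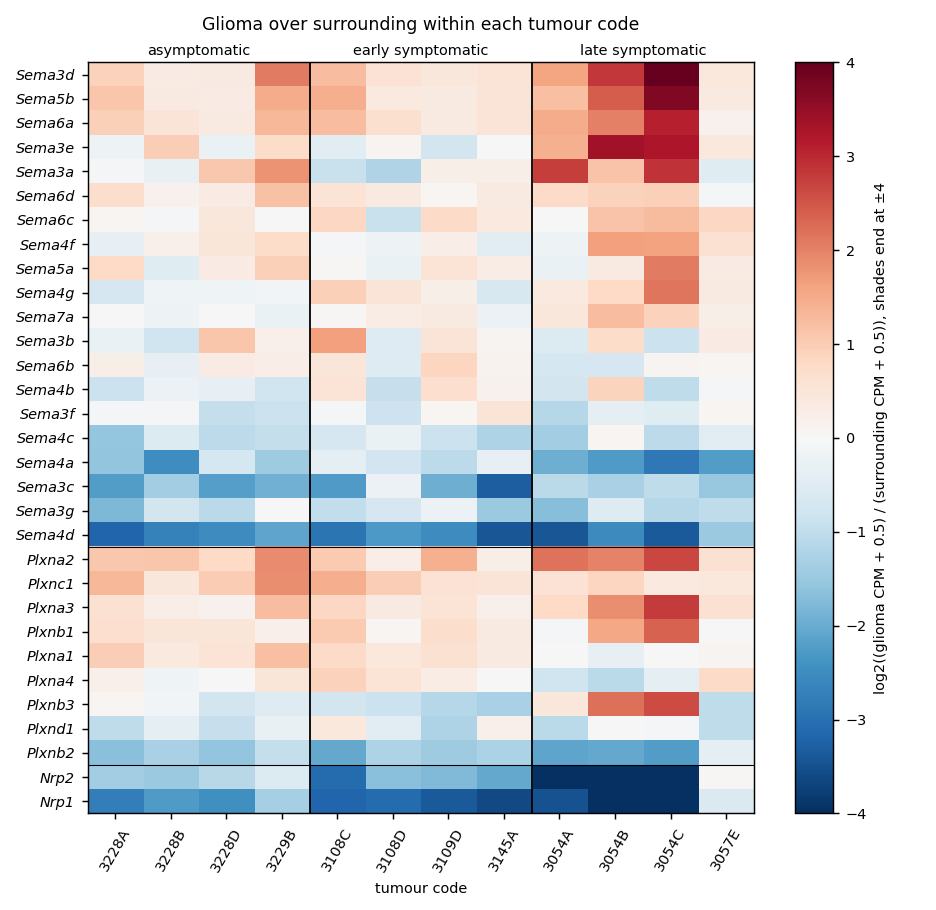
Log2 ratio of glioma to surrounding CPM, each with 0.5 added, for the 31 members (rows) in each of 12 tumours (columns, grouped by stage), red where glioma cells are higher and blue where they are lower. Nrp1, Sema4d, Plxnb2, Sema4a and Sema3c are blue in 12 of 12 columns; Nrp1 and Nrp2 are dark in 3054A, 3054B and 3054C and pale in 3057E.

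The stages were next compared within glioma cells. Late against early symptomatic gliomas gave 1 called member of 30 tested, Sema3e, where 0.273% of all 16494 genes tested were called. Sema3e had 19.9, 43.6, 17.2 and 12.1 CPM in late gliomas 3054A, 3054B, 3054C and 3057E, against 2.66, 7.34, 5.28 and 3.88 CPM in early gliomas 3108C, 3108D, 3109D and 3145A. Asymptomatic gliomas had 4.36 to 6.62 CPM. Every late glioma was above every glioma of the other stages, and 3054B was the highest. The log2 fold change of late over early was 2.27 ± 0.41 with an edgeR adjusted p of 0.042, and that of late over asymptomatic 2.09 ± 0.40 with an adjusted p of 0.061. The call was lost without any 1 of the other 11 tumours, with adjusted p of 0.0545 to 0.14, and without 3108D and 3109D together, at 2.81 ± 0.52 and 0.12. Without 3057E it was kept, at 2.47 ± 0.38 with an adjusted p of 0.0015. Surrounding cells of the late tumours had 1.38 to 8.89 CPM of Sema3e, within the range of 3.09 to 9.05 CPM of the other stages but for 3054C at 1.38 CPM.

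Plxnb3 and Sema3a, named here after their values were seen, were high in late gliomas 3054A, 3054B and 3054C but not in 3057E. Plxnb3, a plexin of the oligodendrocyte lineage and a receptor of Sema5a, had 74.0, 219.9, 125 and 39.3 CPM in late gliomas 3054A, 3054B, 3054C and 3057E, against 22.4 to 40.0 CPM in early and 36.1 to 48.6 CPM in asymptomatic gliomas. The 3057E library lay within the range of the other stages. Late over early was 2.0 ± 0.41 on the log2 scale with an edgeR adjusted p of 0.061, and 2.27 ± 0.31 with 0.00069 without 3057E. Sema3a, a repellent of axons that signals through Nrp1 and A plexins, had 51.3, 29.8, 45.0 and 4.13 CPM in the same 4 late gliomas, against 4.17 to 10.5 CPM in early and 2.07 to 12.5 CPM in asymptomatic gliomas. Late over early was 2.23 ± 0.73 with an edgeR adjusted p of 0.14, and 2.59 ± 0.57 with 0.011 without 3057E. Sema3d, Sema3a and Sema3e are neighbours on chromosome 5, within 1.87 megabases of GRCm38 (12383385 to 14256689), and Sema3c lies further along at 17574281 to 17730268. Sema3d did not share the late over early rise of these neighbours, at 643 to 1094 CPM in late, 722 to 1035 CPM in early and 399 to 799 CPM in asymptomatic gliomas. Late over asymptomatic gliomas, its log2 fold change was 0.34 to 0.73 over 18 alternative fits, called in 1. The log2 fold change of Sema3d in late over early gliomas was -0.15 ± 0.23 with an edgeR adjusted p of 0.74.

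Sema7a levels in glioma cells followed the order of the stages, with 31.3 to 45.2 CPM in asymptomatic, 44.0 to 54.6 CPM in early and 60.2 to 120.4 CPM in late gliomas. Late gliomas overlapped neither other stage, whereas asymptomatic and early gliomas overlapped. Late over asymptomatic was 1.19 ± 0.22 with an edgeR adjusted p of 0.055, and 1.18 ± 0.23 with 0.0054 without 3057E. In late against asymptomatic gliomas 0 of 30 members were called by edgeR, where 0.158% of all genes were. An unadjusted p under 0.05 was reached by 11 of 30 members and by 2445 of all 16494 genes. DESeq2 called 4 members and voom 14, and the share of all genes they called is not given here. In early against asymptomatic gliomas edgeR called 0 of 30 members and 0% of all genes, and DESeq2 and voom called 0 members. Of the members 5 had an unadjusted p under 0.05, against 810 of all 16494 genes.

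Without 3057E, 10 members were called in late against early gliomas, where 17.2% of 16937 genes were. Sema3a, Plxnb3 and Sema3e were higher. Nrp2, Plxna1, Plxna4, Sema5a, Sema5b, Sema6a and Sema6d were lower, with log2 fold changes from -1.98 in Plxna4 to -0.60 in Sema6a. With all tumours none of these 7 was called, and their log2 fold changes ran from -1.46 (Plxna4, edgeR adjusted p 0.097) to -0.08 (Nrp2, 0.95). Plxna4, an axonal receptor of Sema3a and Sema6a, had 21.8, 11.8, 18.3 and 45.4 CPM in late gliomas 3054A, 3054B, 3054C and 3057E, against 37.4 to 91.8 CPM in early gliomas. It is overlapped by 3 antisense genes, from which it cannot be told apart where strand is not known. Against asymptomatic gliomas 12 members were called without 3057E, where 14.7% of genes were, 4 of them higher (Sema3a, Plxnb3, Sema7a and Sema3e). Sema5a, which can attract or repel axons, was at -2.23 ± 0.47 with an edgeR adjusted p of 0.0092, and Nrp2 at -2.13 ± 0.29 with 0.00096. With all tumours Sema5a was at -1.30 ± 0.59 (0.34) and Nrp2 at -0.78 ± 0.60 (0.57), neither called. Nrp2 had 6.75, 2.95 and 5.0 CPM in late gliomas 3054A, 3054B and 3054C and 34.0 CPM in 3057E, against 19.0 to 23.7 CPM in asymptomatic gliomas. Astrocyte markers were also low in these 3 gliomas, with sums of 1018, 922 and 898 CPM in 3054A, 3054B and 3054C and 1985 CPM in 3057E, against 1870 to 2585 CPM in early and 1642 to 2473 CPM in asymptomatic gliomas. With all tumours, edgeR called 1 of 10 astrocyte markers lower in late against early and 4 of 10 in late against asymptomatic gliomas. Their part in the members' differences was not tested. Values without 3057E rest on 3 late tumours of the same code prefix.

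**Figure D4:**
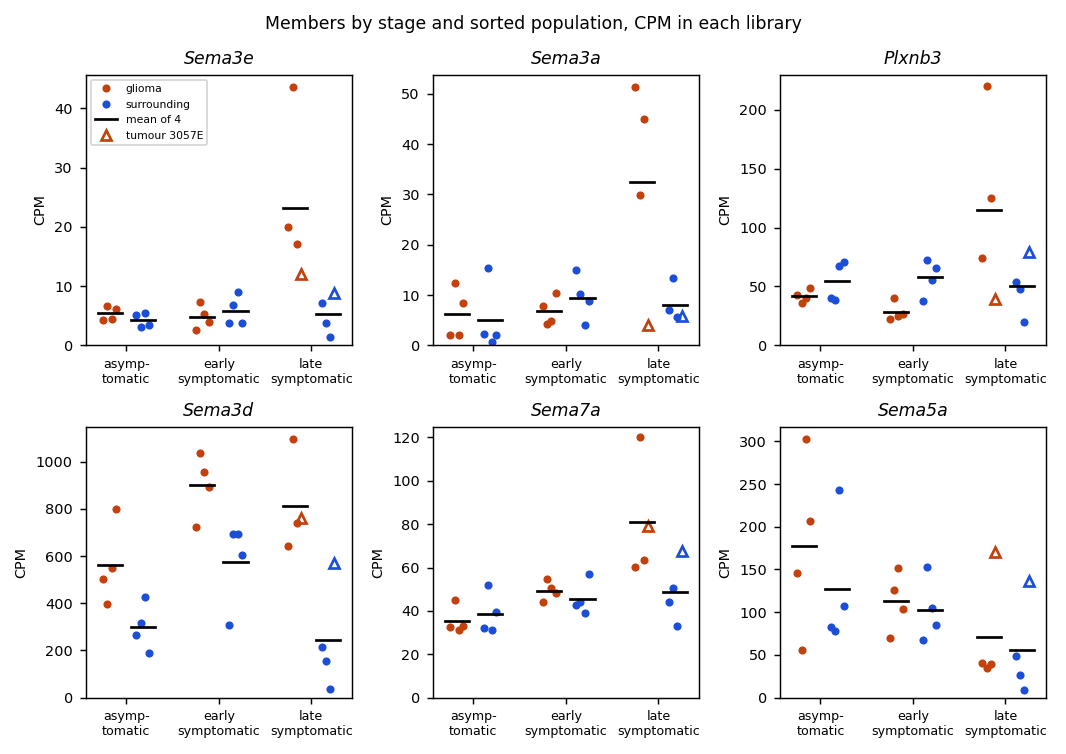
CPM of 6 members in each library by stage, glioma cells left of surrounding cells, with a bar for the mean of 4 and an open triangle for tumour 3057E. Sema3e, Sema3a and Plxnb3 are high in late gliomas 3054A, 3054B and 3054C, while 3057E has 12.1, 4.13 and 39.3 CPM of them. Among late gliomas Sema5a is high in 3057E at 170.1 CPM and low in 3054A, 3054B and 3054C at 34.9 to 40.3 CPM.

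Within surrounding cells, edgeR called 0 of 31 members in late against early tumours, where 1.48% of all 17616 genes were called. Of the 31 members 7 had an unadjusted p under 0.05, against 2901 of all 17616 genes. DESeq2 called 3 members and voom 14, and the share of all genes they called is not given here. Sema4a had the smallest p, with 15.1, 32.2, 29.5 and 15.1 CPM in late surrounding cells of 3054A, 3054B, 3054C and 3057E, against 7.11 to 9.56 CPM in early ones. The groups did not overlap, and the log2 fold change was 1.43 ± 0.36 with an edgeR adjusted p of 0.076. In late against asymptomatic surrounding cells edgeR called 0 members and 0% of genes. An unadjusted p under 0.05 was reached by 7 members and by 2822 of all 17616 genes. DESeq2 called 1 member there and voom 11, again without a share of all genes. Nrp1 reached 159.9, 96.8, 189 and 38.3 CPM in the late surrounding cells of 3054A, 3054B, 3054C and 3057E, against 33.2 to 73.4 CPM in asymptomatic ones, a log2 fold change of 1.08 ± 0.43 with an adjusted p of 0.25. In early against asymptomatic surrounding cells edgeR called 0 members and 0% of genes, and DESeq2 and voom called 0 members. An unadjusted p under 0.05 was reached by 0 members, against 645 of all 17616 genes.

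Leaving out 3057E gave 12 called members in late against early surrounding cells, where 18.9% of genes were called. Sema4a, Sema4d, Nrp1 and Plxnb2 were higher. Sema3d, Sema4f, Sema5a, Sema5b, Sema6a, Sema6c, Sema6d and Plxna3 were lower, with Sema5b at -2.39 ± 0.52 (edgeR adjusted p 0.011), Sema3d at -2.12 ± 0.53 (0.018) and Sema6a at -2.0 ± 0.39 (0.0076). With all tumours these 3 were not called, at -1.38 ± 0.62 (0.29), -1.27 ± 0.61 (0.32) and -1.21 ± 0.51 (0.26) in the same order. Nrp1 was 1.10 ± 0.34 (0.040) without 3057E and 0.81 ± 0.43 (0.37) with it. Against asymptomatic surrounding cells 9 members were called without 3057E, where 16.4% of genes were. Nrp1 at 1.38 ± 0.34 and Nrp2 at 1.27 ± 0.38 were the 2 higher members, with edgeR adjusted p of 0.022 and 0.041. Sema3c was at -2.59 ± 0.71 with 0.031. With all tumours Nrp1 was at 1.08 ± 0.43 (0.25), Nrp2 at 0.99 ± 0.46 (0.31) and Sema3c at -2.09 ± 0.66 (0.17), none of them called. Marker sums moved along with these members: OPC markers summed to 3815, 2625 and 697 CPM in late surrounding cells of 3054A, 3054B and 3054C, against 6258 to 12792 CPM in early ones, and microglia markers to 10112, 12406 and 13980 CPM, against 4125 to 8806 CPM. With all tumours, edgeR called 0 of 12 OPC markers and 0 of 10 microglia markers in late against early surrounding cells, with 0 and 1 at an unadjusted p under 0.05. It called 4 of 8 monocyte and macrophage markers higher, at a median of 3.25 on the log2 scale, with sums of 1196 to 4800 CPM in late and 316 to 847 CPM in early surrounding cells. Of 7 T and NK cell markers tested 3 were higher, with a median of 3.24 and sums of 11.3 to 38.1 CPM in late and 2.64 to 5.26 CPM in early surrounding cells. Their part in the members' differences was not tested.

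**Figure D5:**
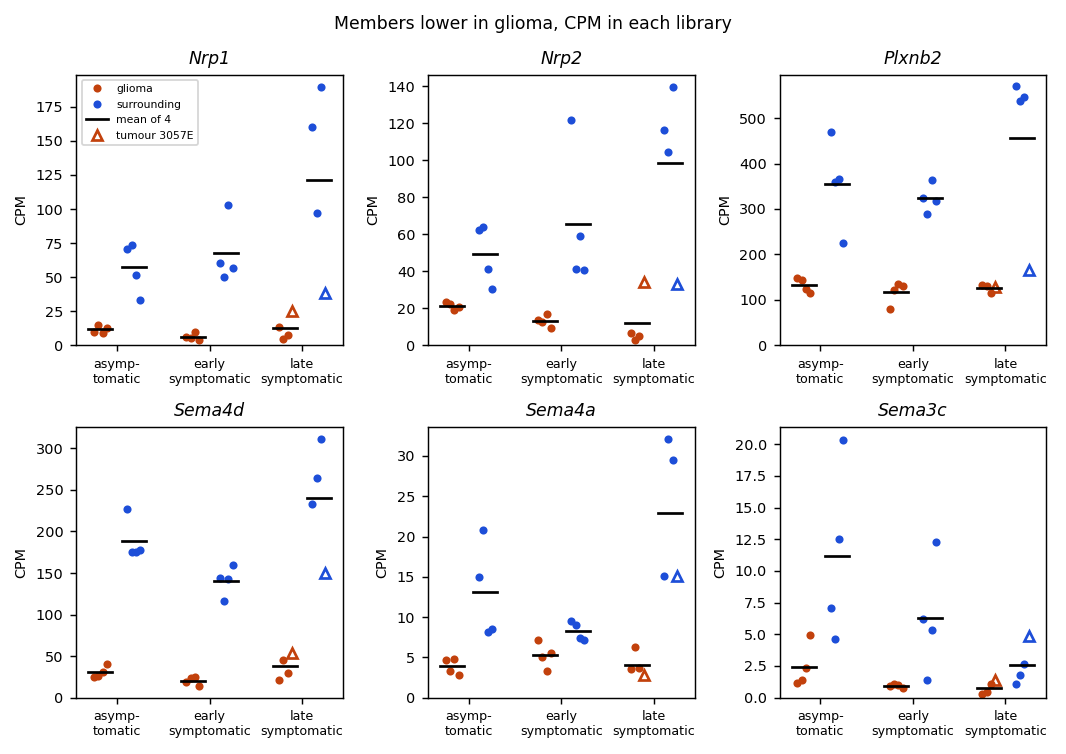
CPM of 6 members that were lower in glioma cells, in each library by stage, glioma cells left of surrounding cells, with a bar for the mean of 4 and an open triangle for tumour 3057E. Nrp1, Plxnb2 and Sema4d are separate between the populations in every library; surrounding cells of 3057E have 38.3 CPM of Nrp1 and 167 CPM of Plxnb2, below the late surrounding cells of 3054A, 3054B and 3054C at 96.8 to 189 CPM and 537 to 571 CPM.

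Whether the difference between the populations itself changed with stage was tested as an interaction. By edgeR 0 of 31 members were called between late and early tumours, 0 between late and asymptomatic and 0 between early and asymptomatic, with 0% of all genes called in each. Unadjusted p under 0.05 was reached by 4, 5 and 1 members in that order. Of all 18810 genes tested 1167, 1585 and 290 reached it. DESeq2 called 0 members in all 3, and voom 6, 5 and 0, without a share of all genes. The smallest p between late and early was that of Plxnb3, with a difference of log2 fold changes of 2.21 ± 0.58 and an adjusted p of 0.45, followed by Sema4a at -1.84 ± 0.49 and Sema3e at 2.42 ± 0.67 with the same adjusted p. Without 3057E 4 members were called between late and early, where 4.51% of genes were. They were Sema3e (2.95 ± 0.67, adjusted p 0.018), Plxnb3 (2.74 ± 0.51, 0.0072), Sema4a (-1.93 ± 0.51, 0.035) and Nrp2 (-2.36 ± 0.50, 0.014). With all tumours Nrp2 was at -0.70 ± 0.78 with an adjusted p of 0.92. Between late and asymptomatic tumours Sema3e, Plxnb3, Nrp1 and Nrp2 were called without 3057E, where 7.45% of genes were. Nrp2 was at -3.44 ± 0.50 with an edgeR adjusted p of 0.00061 without 3057E, and at -1.80 ± 0.78 with 0.57 with all tumours. Nrp1 was at -1.84 ± 0.51 (0.031) without it and at -0.95 ± 0.64 (0.70) with all tumours.

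Set side by side by known partners, ligand and receptor were at times higher in different populations. For Sema3e and Plxnd1, late gliomas had 12.1 to 43.6 CPM of the ligand, and Plxnd1 had 17.3 to 66.5 CPM over the glioma libraries and 21.4 to 62.4 CPM over the surrounding ones, with a log2 fold change of -0.42 ± 0.20 and an edgeR adjusted p of 0.088. Sema3a was highest in late gliomas 3054A, 3054B and 3054C, while its co-receptor Nrp1 was higher in surrounding cells in all 12 tumours. Sema6a and its receptor Plxna2 were both higher in glioma cells. Sema7a and its receptor Plxnc1 were in the same direction in the late stage, at 0.72 ± 0.24 and 0.55 ± 0.32 with edgeR adjusted p of 0.021 and 0.20. Sema4d and Plxnb2 were both lower in glioma cells, whereas Plxnb1, the main receptor of Sema4d, had 44.0 to 103 CPM in glioma cells and 9.30 to 93.1 CPM in surrounding cells and was not called.

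Of other genes in the pathway, 16 of 18 further receptors and co-receptors of semaphorins were tested. Over the mean of the stages 2 were higher and 8 lower in glioma cells. The median log2 fold change of the list was -1.20, against 0.06 for all genes. Of all 18810 genes tested 22.0% were called higher and 24.2% lower, which is the background of each list here. Chl1 and Nrcam, adhesion molecules that join neuropilins in receptor complexes, were the higher ones at 1.26 ± 0.35 and 0.77 ± 0.29. The lower ones with the smallest adjusted p were Cntn2, an axonal adhesion molecule, at -3.55 ± 0.25, Kdr, the main endothelial receptor of vascular endothelial growth factor, at -2.51 ± 0.25, and Flt4, its lymphatic relative, at -3.46 ± 0.34. Of 6 other ligands of neuropilins 3 were lower and 0 higher by edgeR. These were Tgfb1 at -4.91 ± 0.50, Hgf at -2.85 ± 0.38 and Pgf at -1.15 ± 0.32. An unadjusted p under 0.05 was reached by 3 of the 6, and by 9932 of all 18810 genes. Of 28 cytoplasmic partners of plexins 8 were higher and 6 lower, with a median of 0.10. Their shares were near the background. Gsk3b, Crmp1 and Farp1, which relay semaphorin signals to microtubules and small GTPases, were higher by 0.69 ± 0.12, 1.03 ± 0.21 and 1.05 ± 0.22. Fes, a kinase known from myeloid cells, was at -5.78 ± 0.49, Mical2, an enzyme that oxidises actin, at -3.63 ± 0.44 and Rap1b, a small GTPase, at -1.39 ± 0.17. In late against early gliomas edgeR called 0 genes of these 3 lists. Of those tested 2 of 14, 2 of 6 and 5 of 28 had an unadjusted p under 0.05, against 3243 of all 16494 genes.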

How the data were processed

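RNA of FACS-sorted cells was harvested with a micro kit, and libraries were made with a total RNA kit from polyA RNA, per the labels' protocols. Gene-level expected counts were deposited. The submitters' processing notes name RSEM 1.3.1, STAR 2.7.5c and the build GRCm38 among the tools. The annotation release and strand setting are not given in the sources used here, so overlapping and antisense genes are uncertain, and 18 of 31 members are overlapped by other genes. In 8 members some expected counts were fractions, which made up at most 0.277% of a member's counts. Asymptomatic and symptomatic follow the symptom label. The split into early and late symptomatic follows the letters pS and tD that end the sample descriptions, which the labels do not spell out, and coincides with days 35 to 50 and 100 to 175; early and late are names given here. Members and lists were chosen with earlier results of these data known.

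Expected counts were rounded, filtered for low values (minimum count 10), scaled by TMM and tested in R 4.3.3 by the robust quasi-likelihood method of edgeR 4.0.16, over all 24 libraries for population and interaction contrasts and over 12 for stages. Group means were the only terms, Benjamini-Hochberg adjustment ran across every gene tested, and the ± beside a log2 fold change is its standard error, derived from the F statistic. All 31 members passed the filter over 24 libraries and in surrounding cells, and 30 in glioma cells, where Sema3g did not. Exon lengths and coordinates came from GENCODE, matched for 98.6% of identifiers. Nothing says that tumours of a code prefix were raised separately. Each tumour gave a single library to a stage fit, so p there measures the spread between these tumours. Population and interaction fits had no tumour term and took both libraries of a tumour as independent. Their p measures the spread of libraries within the groups of stage and population, with the pairing ignored outside the block fits. Per-library values are given for members called between stages and for the 4 higher and 4 lower members with the largest fold between populations, and up to 3 genes per list and direction with the smallest adjusted p are named; others named were chosen after their values were seen.

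Alternatives were DESeq2 1.42.0, limma 3.58.1 voom with sample weights, DESeq2 size factors, no filter, all 24 libraries in 1 fit, each tumour left out, 3108D and 3109D left out, and the tumour code as a block, as labelled or with those codes exchanged. Both libraries of a code come from the same animal per the labels, which Xist and Ddx3y do not bear out for 3108D and 3109D. Their deviations from the group means correlated at 0.0128 to 0.456, with 0.0392 for 3108D and 0.0128 for 3109D, and at 0.425 and 0.316 with those codes exchanged. Fits were also run on simulated counts with the same spread for every gene and no tumour effect. That setting differs from these data, so no support is drawn from it.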

Additional observations from a re-analysis of the deposited data

Results flagged for a closer look

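Each of 186 groups of 4 libraries was searched for a library far from the other 3, and chance flags about 1 group in 20. Of these groups 13 had such a library, 3 of them from tumour 3057E. In late gliomas 3057E had 79.5 CPM of Plxna3 (others 25.9 to 31.0 CPM) and 170.1 CPM of Sema5a (others 34.9 to 40.3 CPM), and in late surrounding cells it had 167 CPM of Plxnb2 (others 537 to 571 CPM).

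In early symptomatic tumours, surrounding cells of 3108C had 309 CPM of Sema3d (others 605 to 695 CPM) and 98.4 CPM of Sema6d (others 143 to 147 CPM), glioma cells of 3108C had 3.64 CPM of Sema3b (others 1.59 to 1.77 CPM), and surrounding cells of 3108D had 52.9 CPM of Plxna2 (others 31.5 to 33.1 CPM). In asymptomatic tumours, glioma cells of 3229B had 57.2 CPM of Plxna1 (others 81.8 to 84.7 CPM) and 1.60 CPM of Sema3g (others 0 to 0.0838 CPM), and its surrounding cells had 3.60 CPM of Sema6c (others 6.90 to 7.76 CPM). Surrounding cells of 3228A had 12.6 CPM of Sema4b (others 9.01 to 9.27 CPM) and 227 CPM of Sema4d (others 175 to 178 CPM), and glioma cells of 3228B had 45.2 CPM of Sema7a (others 31.3 to 32.9 CPM).

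Sema4g, a transmembrane semaphorin, was higher in glioma cells in all 4 late tumours, with log2 ratios of 0.36 to 2.15, and lower in all 4 asymptomatic tumours, with ratios of -0.67 to -0.11. The interaction was 1.11 ± 0.47 with an edgeR adjusted p of 0.56.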

How the results depend on the processing

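The count of called members over the mean of the stages stayed within 1.5 times under every alternative run. The share of all genes called under an alternative is given above only for stage contrasts and interactions of late tumours without 3057E. Counts given without that share, here and above, cannot be read as particular to the members. Other counts of called members that moved by more than 1.5 times were as follows. With voom and sample weights they were 15 in asymptomatic and 8 in early tumours for glioma against surrounding cells, 11 for late against early and 14 for late against asymptomatic gliomas, 14 and 11 for the same contrasts of surrounding cells, and 6 and 5 for the interactions of late with early and with asymptomatic. With DESeq2 they were 7 and 4 in gliomas and 3 and 1 in surrounding cells, for late against early and late against asymptomatic. With all 24 libraries in 1 fit they were 3 and 1 in gliomas, and 1 for late against early surrounding cells. With no filter late against asymptomatic gliomas gave 2. With the replicate block the early count of glioma against surrounding cells was 8, also with codes exchanged, and with codes exchanged the asymptomatic count was 10. Without 3108D and 3109D late against early gliomas gave 0. Leaving out each tumour in turn, counts ranged from 7 to 18 for glioma against surrounding cells in late tumours, 0 to 10 for late against early and 0 to 12 for late against asymptomatic gliomas, 0 to 12 and 0 to 9 for surrounding cells, and 0 to 4 for each of these interactions; 3057E gave the highest count in each. The block ended the late call of Plxnb3 and no other call of the members given as results. The difference of Sema3d between late and early gliomas, which was not called, was 0.00092 on the log2 scale without 3108D and 3109D and -0.15 with them. Of the values of single members under an alternative, 1149 kept their direction and side of the threshold, 82 lost and 58 gained a call. The causes were not tested. Members with few reads, Sema3g, Sema3f and Sema3b, limit what these depths show.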
